A study of Mus musculus with 2 samples.

Results

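Mitosis genes were examined in leukemic stem cells (LSCs) of mice with BCR-ABL-driven chronic myeloid leukemia (CML). The members were a list of 52 genes named for their part in mitosis, and they were found by gene symbol in the expression tables. All 52 symbols were present among the 23284 symbols listed for each library. Every member had more than 1 FPKM in both libraries, so that no member was lost to a filter on low values. FPKM counts sequenced fragments relative to transcript length and to the size of the library, so that levels of different genes can be compared per length.

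The groups were WT and STAP-1 KO CML LSCs with 1 library each, called the WT and the KO library below. In both, bone marrow LSK cells (lineage negative, Sca-1 positive and c-Kit positive) of C57BL/6J background had been transduced with human BCR-ABL and green fluorescent protein (GFP) by a retrovirus and transplanted, together with untransduced C57BL/6SJL marrow, into lethally irradiated adult C57BL/6SJL recipients. GFP+ donor-type LSK cells were sorted on day 11 after the first bone marrow transplantation. In the KO group the donor cells also lacked Stap1 through a targeted disruption, and this is the difference in genotype that the labels give. The number of mice behind each library is not given in the sources used here. An effect of the genotype cannot be told apart from differences among mice, sorts or preparations, so no comparison carries a test or a p-value.

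Mitosis begins when cyclins A and B activate the kinase Cdk1. Condensin then compacts the chromosomes, kinetochores attach them to spindle microtubules, and the spindle checkpoint holds back anaphase until every chromosome is attached. The anaphase-promoting complex (APC/C) with its activator Cdc20 then ubiquitinates securin and cyclin B, separase cleaves cohesin, and the cell divides by cytokinesis. Most of these genes are transcribed in late S phase, G2 and M, so that their mRNA is commonly read as a mark of cycling cells. In bulk RNA fewer cells of a kind and less RNA per cell cannot be told apart.

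A shared feature of the members that did not depend on the expression values was found in their promoters, which are shown first. Promoters of late cell cycle genes are known for the cell cycle genes homology region (CHR), to which the MuvB complex binds, and for CCAAT boxes, to which NF-Y binds. In RefSeq sequences of GRCm38.p6, from 250 bases before to 50 bases after a gene start, 49 promoters of 44 members were available. The letters TTTGAA or TTCGAA, taken here as the CHR and read on both strands, were found in 37 of the 49 promoters (75.5%), against 19.2% of all 32851 promoters in the table and 14.3% of the 10073 promoters of genes averaging 1 FPKM or more. CCAAT on either strand was found in 38 of 49 (77.6%), against 37.4% of all promoters and 38.3% of those of the expressed genes. Both were found together in 32 of 49 (65.3%), against 7.52% and 5.87%. GCGGGAA, an E2F-type motif of early cell cycle genes, was found in 3 of 49 (6.12%), against 4.60% and 8.37%. A match of letters is a description of the sequence and not a binding site.

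The 4 members printed here had the highest mean FPKM among those with both motifs. Each sequence runs 5′ to 3′ along the gene, from 180 bases before to 30 bases after the annotated start, and the capitals mark the CHR (TTTGAA, or TTCAAA where it lies on the other strand) and the CCAAT boxes (CCAAT, or ATTGG on the other strand). Ube2c lies at chr2:164769749-164769958 on the plus strand, Bub3 at chr7:131560190-131560399 on the plus strand, Ccnb2 at chr9:70421525-70421734 on the minus strand and Cdca8 at chr4:124936888-124937097 on the minus strand, all in GRCm38.p6.
Ube2c: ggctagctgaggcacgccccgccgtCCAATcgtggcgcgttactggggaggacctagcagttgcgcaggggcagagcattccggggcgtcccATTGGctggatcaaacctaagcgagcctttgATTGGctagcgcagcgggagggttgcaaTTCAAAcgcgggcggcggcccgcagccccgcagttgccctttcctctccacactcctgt
Bub3: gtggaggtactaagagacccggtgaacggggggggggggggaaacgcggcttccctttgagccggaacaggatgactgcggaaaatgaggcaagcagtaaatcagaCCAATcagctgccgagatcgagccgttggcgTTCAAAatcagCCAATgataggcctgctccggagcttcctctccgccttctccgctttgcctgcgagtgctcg
Ccnb2: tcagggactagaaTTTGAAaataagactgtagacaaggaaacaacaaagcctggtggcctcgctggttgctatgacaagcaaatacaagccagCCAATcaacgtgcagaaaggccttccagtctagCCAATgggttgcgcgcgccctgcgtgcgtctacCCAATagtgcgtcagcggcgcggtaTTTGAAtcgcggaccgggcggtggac
Cdca8: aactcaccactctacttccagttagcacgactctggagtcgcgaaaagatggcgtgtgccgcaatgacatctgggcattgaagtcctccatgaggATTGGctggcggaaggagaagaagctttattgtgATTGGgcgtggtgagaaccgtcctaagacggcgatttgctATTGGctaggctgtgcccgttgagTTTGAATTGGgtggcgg

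In these stretches Ube2c held 3 CCAAT boxes before its CHR, Bub3 held 1 before and 1 after its CHR, and Ccnb2 held 3 between its first and its second CHR. In Cdca8 the last of 4 CCAAT boxes overlapped the end of the CHR. That a CHR lay near the start follows from the choice of these genes by their promoters, so only its place is given. With the start base as 0, the first base of the CHR was at -29 in Ube2c, -43 in Bub3, 5 in Ccnb2 and 14 in Cdca8, and the other CHR of Ccnb2 was at -167. Bub3 has a further promoter (chr7:131560244-131560543) with a start downstream of the one used here.

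Facts of the libraries that bear on these values are as follows. Stap1, the targeted gene, was at 62.0 FPKM (WT) and 0.309 FPKM (KO). The steps between low FPKM values gave effective depths of 7500000 reads (WT) and 10470000 reads (KO), from which reads per gene were estimated. Of the cell type markers, all 12 mast cell markers were lower by 2-fold or more in KO, with a summed level of 56680 (WT) and 5923 FPKM (KO). Neutrophil primary granule markers went the other way (6 of 7 at least 2-fold higher, 573 and 4640 FPKM summed). Of 10 erythroid markers 4 were at least 2-fold lower and 1 higher (2917 and 1465 FPKM summed). The higher one was the globin gene Hba-a1 (34.8 and 380 FPKM), and the globin gene Hba-a2 (773 and 15.9 FPKM) was among the lower. How reads were divided between these 2 was not tested. Of 7 megakaryocyte markers 2 were lower and 1 higher (201 and 135 FPKM summed). Among all 12507 genes with at least 0.1 FPKM in both libraries, 22.9% were at least 2-fold lower and 12.3% higher, and the megakaryocyte counts were near these shares. Of 6 T cell markers 3 (Lck, Cd3g and Cd4) were at least 2-fold higher and 1 (Cd8a) lower (15.7 and 49.3 FPKM summed, of which Lck gave 11.8 and 41.9 FPKM), and the counting intervals of Cd4 (from 0.933 to 18.1) and Cd8a (from 0.079 to 1.34) included a ratio of 1. The Y-linked genes Ddx3y, Eif2s3y, Kdm5d and Uty were detected in both libraries, and Xist was listed at 0 (WT) and 0.849 FPKM (KO). The genes of the sort markers were detected in both libraries, Kit (c-Kit) with 468 and 30.1 FPKM, Ly6a (Sca-1) with 285 and 106 FPKM and Ptprc (CD45) with 107 and 38.2 FPKM, and the progenitor gene Cd34, which was not used in the sort, had 281 and 194 FPKM. The part of these cell type markers in the mitosis gene values was not tested.

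Mitosis genes were higher in the KO than in the WT library in most cases, with a median ratio close to 2 and a wide range. The median FPKM of the 52 members was 35.5 in the WT and 63.97 in the KO library, and their summed FPKM was 2377 and 4649. The ratio of STAP-1 KO to WT had a median of 1.88 and ranged from 0.378 (Espl1) to 3.24 (Cenpk). With a 2-fold cut-off and a floor of 0.1 FPKM in both libraries, 19 members were higher, 2 were lower (Espl1 and Mki67) and 31 were not past the cut-off in either direction. Among all 12507 genes above the floor, 12.3% were higher and 22.9% were lower by the same rule. On the scale of log2((STAP-1 KO + 0.1)/(WT + 0.1)), which is used below and called the log2 ratio, the members had a median of 0.91 with 48 of 52 above 0, whereas the 10974 genes averaging 1 FPKM or more had a median of -0.04 with 48.3% above 0. A further 20 members had a ratio from 1.5 to just under 2, so that the cut-off divides a continuous range.

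The members were well covered, with at least 193 estimated reads in the WT and 237 in the KO library. From these reads an exact 95% binomial interval was computed for each ratio. It covers counting error only, since the reads carry no molecular identifiers and there is no second library. The interval lay above 1 in 46 members, below 1 in 3 (Espl1, Mki67 and Foxm1), and included 1 in 3 (Cenpe, Kif4 and Ncapd2). Among all 12360 genes above the floor with a transcript length, it lay above 1 in 34.4% and below 1 in 39.6%. For 14 members the interval lay above 2, and for 5 of the 19 members past the cut-off it included 2.

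**Figure D1:**
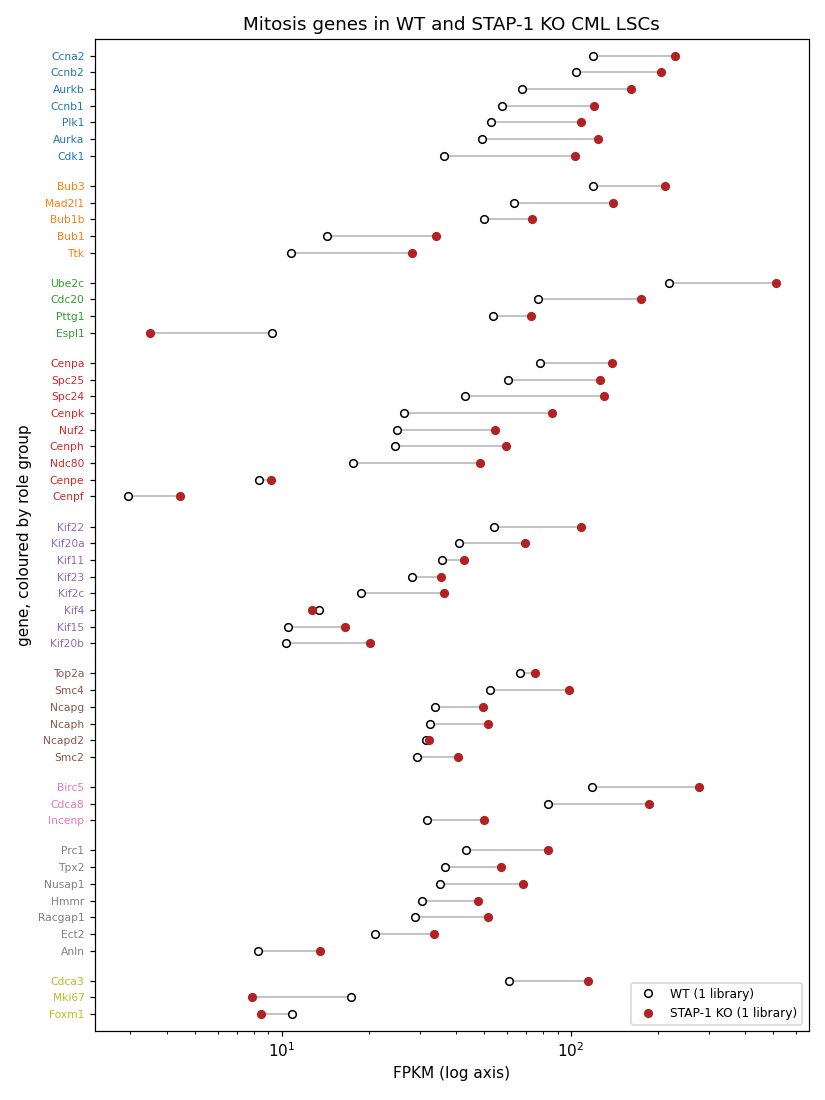
FPKM of each mitosis gene (log axis) in the WT library (open circles) and the KO library (filled circles), ordered by role group and by WT level, with the gene names coloured by group. The filled circle lies to the right of the open one in 48 of 52 genes; Espl1, Mki67, Foxm1 and Kif4 are the exceptions.

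The cyclins and entry kinases, which start mitosis, were all higher in the KO library, and 5 of 7 passed the cut-off. Cdk1, the kinase that drives entry, had 36.5 (WT) and 103 FPKM (KO), a ratio of 2.83 (counting interval from 2.65 to 3.02). Its partner cyclins differed less, and Ccna2 had 119 and 229 FPKM, Ccnb1 had 57.8 and 120.0 FPKM, and Ccnb2 had 104 and 205 FPKM. Ccna2 and Ccnb2 were below the cut-off with ratios of 1.92 and 1.97, and the intervals of the 3 cyclin ratios all included 2. Plk1, a kinase of centrosome maturation and mitotic progression, had 53.2 and 108 FPKM. Aurka, which acts at spindle poles, had 49.4 and 124 FPKM, and Aurkb, the kinase of the chromosomal passenger complex, had 67.9 and 161 FPKM. As deposited, the group's log2 ratios lay from 0.944 to 1.498 with a median of 1.05. After the length and GC correction described below they lay further apart, from 0.593 (Ccnb2) to 1.85 (Cdk1). With it 3 of the 7 (Cdk1, Aurka and Aurkb) were past the cut-off, and with the length of the longest annotated transcript 1 was (Cdk1).

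The spindle checkpoint genes were also all higher, with a median log2 ratio of 1.13, and 3 of 5 were past the cut-off. Ttk, the kinase at the head of the checkpoint, had the lowest level of the group and the highest ratio, with 10.8 (WT) and 28.2 FPKM (KO) (ratio 2.61, counting interval from 2.24 to 3.04). Bub1, a kinase that recruits other checkpoint proteins to kinetochores, had 14.3 and 34.2 FPKM. Mad2l1, which encodes the Mad2 inhibitor of Cdc20, had 63.7 and 140 FPKM. The other genes of the group were not past the cut-off, Bub3 with 119 and 212 FPKM and Bub1b, which encodes BubR1, with 50.02 and 73.1 FPKM. The interval of Bub1b (from 1.37 to 1.56) did not overlap those of Ttk, Bub1 and Mad2l1, the lowest of which started at 2.02. After the length and GC correction, the log2 ratio of Bub1b (0.77) was above that of Mad2l1 (0.46), which was then no longer past the cut-off, but with the length of the longest annotated transcript Mad2l1 (1.76) stayed above Bub1b (0.72).

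Genes of anaphase and the APC/C did not move together. The APC/C activator Cdc20 had 77.3 (WT) and 175 FPKM (KO), and Ube2c, the E2 enzyme of the APC/C, had 218 and 512 FPKM, the highest level of all members in both libraries. Pttg1, which encodes securin, the inhibitor of separase, had 53.8 and 72.7 FPKM, a ratio of 1.35 that came to lie below 1 after the same correction. Espl1, which encodes separase itself, had 9.28 and 3.51 FPKM, and its ratio of 0.378 (counting interval from 0.322 to 0.444) was the lowest of the 52. The transcripts have 1674 bases for Pttg1 and 6658 bases for Espl1. After the correction the log2 ratios of Pttg1 (-0.09) and Espl1 (-0.21) lay on the same side of 0, and Cdc20 (0.92) and Ube2c (0.68) were not past the cut-off, though Ube2c was with the longest annotated transcript (1.12).

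Centromere and kinetochore genes were all higher in the KO library, and 6 of 9 passed the cut-off. The 4 genes of the NDC80 complex, which binds microtubules, were all past it. Ndc80 had 17.6 (WT) and 48.4 FPKM (KO), and Nuf2 had 25.1 and 54.6 FPKM. Spc24 had 43.1 and 130.0 FPKM, and Spc25 had 60.5 and 126 FPKM. The intervals of Ndc80 and Spc24 lay above 2, and those of Nuf2 and Spc25 included 2. After the length and GC correction Ndc80 (1.01) and Spc24 (1.17) had log2 ratios past the cut-off, and Nuf2 (0.60) and Spc25 (0.52) did not. Of the inner kinetochore genes, Cenpk had 26.5 and 86.1 FPKM, the highest ratio of all members (3.24, counting interval from 2.79 to 3.77), and Cenph, whose protein forms a complex with that of Cenpk, had 24.7 and 59.6 FPKM. The correction left neither Cenpk (0.79) nor Cenph (0.57) past the cut-off. Cenpa, the histone H3 variant that marks the centromere, had 78.2 and 139 FPKM and a ratio of 1.77. The genes of the large outer proteins differed least as deposited. Cenpe, a kinetochore motor, had 8.35 and 9.21 FPKM, with an interval from 0.982 to 1.24 that includes 1, and Cenpf had 2.93 and 4.45 FPKM. These 2 genes have transcripts of 7910 and 11130 bases, against at most 2405 bases for the others of the group. After the length and GC correction Cenpf (1.49) was the highest of the 9 genes, and Cenpe (0.92) was above their median of 0.79.

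Of the 8 kinesins, 7 had a log2 ratio above 0, and 1 was past the cut-off. That one was Kif22, a chromosome arm motor, with 54.3 (WT) and 109 FPKM (KO). Its ratio of 2.00 was at the cut-off itself, with a counting interval from 1.84 to 2.18. After the length and GC correction Kif22 was not past the cut-off with a log2 ratio of 0.86 (1.12 with the longest annotated transcript), and Kif15 (1.06) and Kif20b (1.24) were. Kif20b, a motor of cytokinesis, had 10.3 and 20.2 FPKM, and Kif2c, a microtubule depolymerase that corrects attachments, had 18.8 and 36.3 FPKM. Their ratios of 1.96 and 1.94 also had intervals that include 2. Kif20a, which acts at the central spindle, had 41.1 and 69.6 FPKM, and it shares 1271 exon bases with Cdc23 on the opposite strand, which had 36.0 and 58.6 FPKM. Kif15, a spindle motor, had 10.5 and 16.5 FPKM. The other genes were closer to a ratio of 1, with 35.7 and 42.7 FPKM for Kif11, the motor that separates the spindle poles, and 28.2 and 35.6 FPKM for Kif23, a subunit of centralspindlin. Kif4, a chromosome-bound motor, had 13.4 and 12.8 FPKM with an interval from 0.844 to 1.07, and its log2 ratio of -0.07 turned to a value above 0 when the libraries were rescaled to an equal sum or corrected for length and GC content. Kif4 shares 832 exon bases with Pdzd11 on the opposite strand (73.7 and 116 FPKM), and the library kit does not keep the strand.

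No gene of the condensin and topoisomerase group was past the cut-off, and its median log2 ratio of 0.51 was the lowest among the groups with at least 5 genes. The SMC subunits that both condensins share were not alike, and Smc4 had 52.5 (WT) and 98.5 FPKM (KO) while Smc2 had 29.5 and 40.7 FPKM. The intervals of their ratios, from 1.77 to 1.99 and from 1.29 to 1.49, did not overlap. Their log2 ratios of 0.91 and 0.47 came closer together with the length and GC correction (1.06 and 0.74, or 0.84 and 0.69 with the longest annotated transcript). Of the subunits of condensin I, Ncaph had 32.6 and 51.9 FPKM and Ncapg had 33.9 and 49.7 FPKM. Ncapd2, the largest of these non-SMC subunits, had 31.6 and 32.4 FPKM, with an interval from 0.945 to 1.11. Top2a, the topoisomerase that untangles sister chromatids, had 66.5 and 75.5 FPKM. Compared with the cyclins and entry kinases, whose lowest log2 ratio was 0.94, every gene of this group had a lower log2 ratio, the highest being 0.91 for Smc4. This separation was not kept after the length and GC correction, where Smc4 (1.06, or 0.84 with the longest annotated transcript) was past the cut-off with the former length and above 5 of the 7 cyclins and entry kinases.

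The chromosomal passenger complex joins Aurkb to 3 of the members. Birc5, which encodes survivin, had 118 (WT) and 276 FPKM (KO), and Cdca8, which encodes borealin, had 83.3 and 186 FPKM. These ratios of 2.34 and 2.24 were close to the 2.37 of Aurkb, and their counting intervals overlapped with it. The scaffold gene Incenp had 31.8 and 50.1 FPKM, a ratio of 1.57 (counting interval from 1.44 to 1.72), below those of its partners. After the length and GC correction Incenp (0.91) and Cdca8 (0.94) were close, and Cdca8 was not past the cut-off (1.10, and past it, with the longest annotated transcript).

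Genes of the spindle and of cytokinesis had the narrowest range of log2 ratios among the role groups as deposited, though not after the length and GC correction (from 0.56 to 0.9996, against 0.91 to 1.26 for the chromosomal passenger subunits). As deposited, none of the 7 passed the cut-off, and all had log2 ratios from 0.64 to 0.95. After the correction Anln was past it, because the call uses the ratio without the pseudocount. With the longest annotated transcript Anln (1.09) and Racgap1 (1.03) were. Nusap1, a microtubule-associated protein gene, had 35.2 (WT) and 68.4 FPKM (KO), and Prc1, which bundles the microtubules of the central spindle, had 43.4 and 83.5 FPKM. Racgap1 and Ect2, which control the contractile ring through RhoA, had 29.0 and 51.7 FPKM and 20.95 and 33.7 FPKM. Anln, which encodes the ring protein anillin, had 8.32 and 13.5 FPKM. The spindle assembly genes Tpx2 and Hmmr had 36.7 and 57.3 FPKM and 30.5 and 47.6 FPKM. All 7 intervals lay above 1.

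The remaining 3 members were regulators and a marker, and here 2 of 3 had a log2 ratio below 0. Mki67, which encodes the proliferation marker Ki-67, had 17.4 (WT) and 7.89 FPKM (KO), a ratio of 0.453 (counting interval from 0.414 to 0.495). Foxm1, the forkhead factor that works with MuvB on late cell cycle promoters, had 10.9 and 8.46 FPKM, a ratio of 0.777 (counting interval from 0.671 to 0.897) that was above 1 after the length and GC correction. Cdca3, which helps to degrade the inhibitory kinase Wee1, had 61.2 and 115 FPKM. The lower call of Mki67, whose transcript has 10061 bases, ended with the same correction, where its log2 ratio was -0.14.

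**Figure D2:**
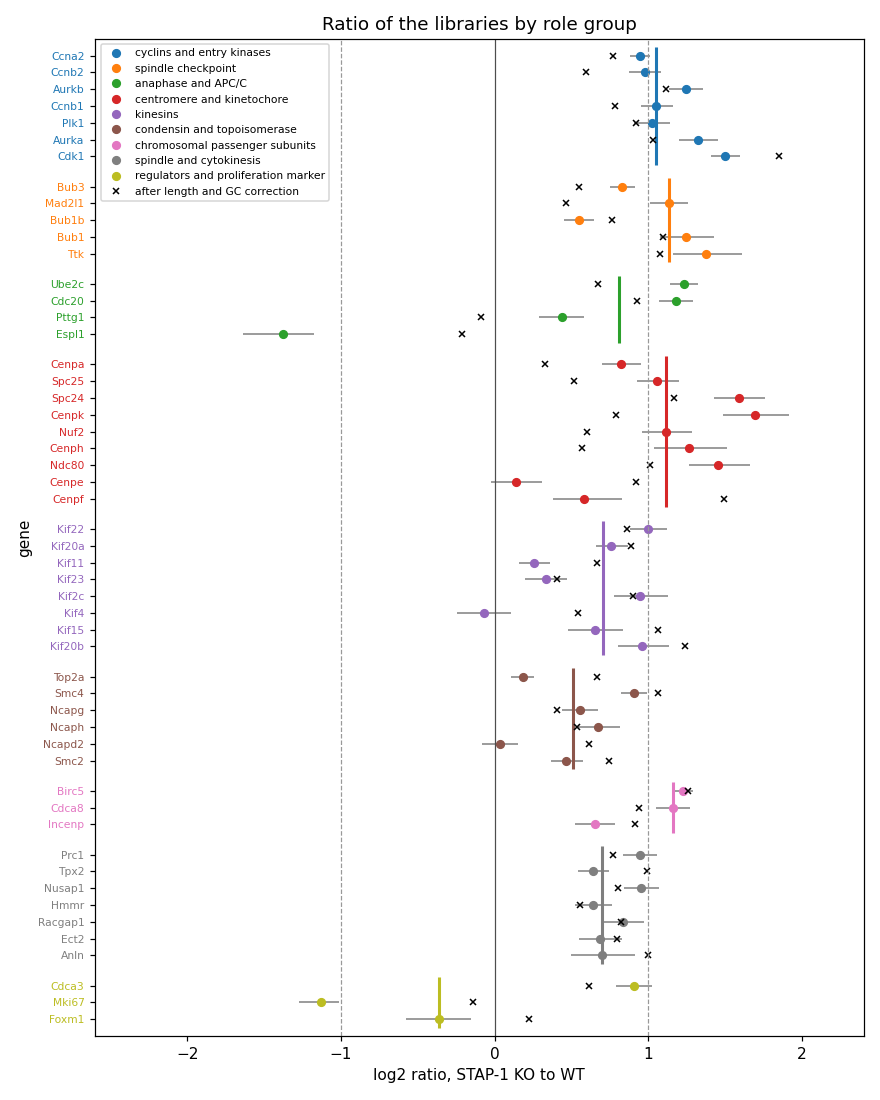
Log2 ratio of STAP-1 KO to WT for each mitosis gene (coloured points) with its exact 95% counting interval (grey lines, computed on the plain ratio), the median of each role group (coloured bars) and the value corrected for length and GC content of the transcript (crosses). Dashed lines mark a 2-fold ratio in each direction. Most points lie between 0.5 and 1.5, Espl1 and Mki67 lie beyond -1, and their crosses lie near 0.

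Transcript length moved with the ratio, and its part was examined by a correction. Length was that of the longest GENCODE M21 transcript with a RefSeq mRNA, which all 52 members had, and it ranged from 967 bases (Ube2c) to 11130 bases (Cenpf). Among the members, Spearman's rank correlation of the log2 ratio with length was -0.70, and among 10865 genes averaging 1 FPKM or more it was -0.40. These are descriptions across genes within 1 pair of libraries. Of the 14 members under 2000 bases, 10 were at least 2-fold higher, and their median log2 ratio was 1.17, against 0.44 for all 3220 genes of that length, of which 20.7% were higher. Of the 21 members from 2000 to under 4000 bases, 8 were at least 2-fold higher, with a median of 0.94 against 0.03 for 4494 genes, of which 10.5% were higher. Of the 17 members of 4000 bases or more, 1 (Cdk1) was at least 2-fold higher and 2 (Espl1 and Mki67) lower, with a median of 0.47 against -0.72 for 3151 genes, of which 3.21% were higher and 39.5% lower. The median of the members thus lay above that of all genes in each class. Of single members, Pttg1 (0.436 against 0.444), Espl1 (-1.38) and Mki67 (-1.13) lay below the median of their class.

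After subtraction of the median log2 ratio of genes of like length and then of like GC content, the median of the members was 0.79, and 49 of 52 were above 0. Pttg1 (-0.09), Mki67 (-0.14) and Espl1 (-0.21) were the exceptions. Of the 19 members at least 2-fold higher as deposited, 8 were past the cut-off after the correction and 11 were not (among them Ccnb1, Plk1, Cdc20, Ube2c and Cenpk), while Cenpf, Kif15, Kif20b, Smc4 and Anln were past it only after the correction. With the length of the longest annotated transcript, 9 of the 19 were past the cut-off, among them Mad2l1, Ube2c, Kif22 and Cdca8 but not Aurka, Aurkb or Bub1. The 5 that were past it as deposited and with both lengths were Cdk1, Ttk, Ndc80, Spc24 and Birc5. Neither Espl1 nor Mki67 was past the cut-off after the correction, and the log2 ratio of Foxm1 turned from -0.36 to 0.22. Cenpf became 1.49 and Cenpe 0.92, and Cenpk went from 1.69 to 0.79. Cdk1 was at 1.85, the highest corrected value with these lengths. With the length of the longest annotated transcript, Mad2l1 was the highest instead, at 1.76 against 1.70 for Cdk1. With the correction the medians of the groups with at least 5 genes came closer together, from a range of 0.51 to 1.13 to a range of 0.64 (condensin and topoisomerase) to 0.92 (cyclins and entry kinases). The kinesins moved from 0.70 to 0.87 and the kinetochore genes from 1.12 to 0.79, so that their order was turned. With the longest annotated transcripts it was not turned (0.85 for kinesins and 0.95 for kinetochore genes), and the cyclins and entry kinases (0.91) were then not the highest group.

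**Figure D3:**
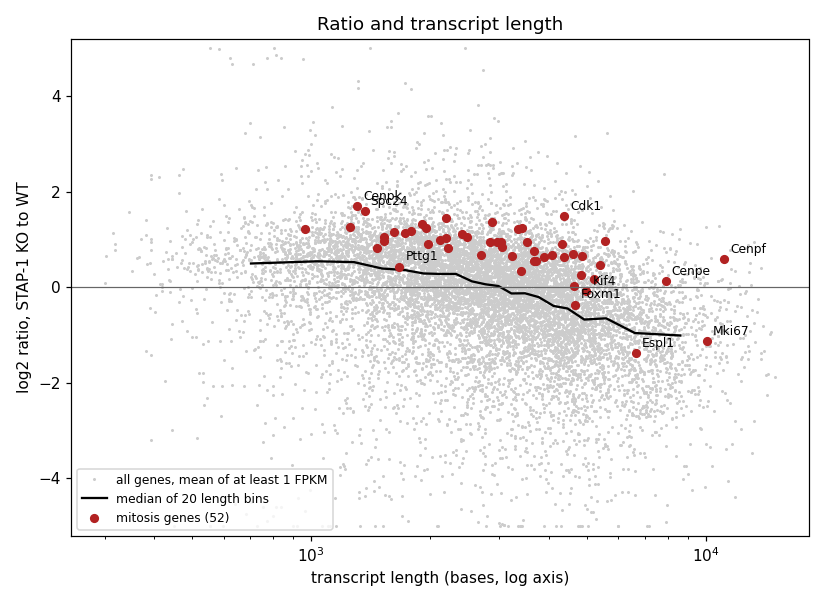
Log2 ratio of STAP-1 KO to WT against transcript length (log axis) for all genes averaging 1 FPKM or more whose length lies within the axis (grey, clipped at 5 in each direction), with the median of 20 length bins (black line), and for the 52 mitosis genes (red). The grey median is above 0 for short and below 0 for long transcripts, and most red points lie above it at every length, with Espl1, Mki67 and Pttg1 near it.

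Members with and without the CHR letters overlapped in their ratios. The 34 members with a CHR in a promoter reached 0.83 as the median log2 ratio, with 11 at least 2-fold higher. The 10 members with a promoter in the table and no CHR had a median of 1.08, and 6 were at least 2-fold higher. Both medians are as deposited, and none was taken after the length and GC correction. After it, Birc5 alone of these 6 was past the cut-off. Of the 11 with a CHR, Cdk1, Aurka, Bub1, Ttk and Ndc80 stayed past it, and Cenpf, Kif15, Kif20b and Anln, which also have a CHR, came to be past it. Which genes were past it changed with the longest annotated transcript. Cenpk, Cenph, Mad2l1 and Nuf2 were among those without the letters in this window, and Mki67 and Espl1 were among those with them.

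Other mitosis genes, from a second list of 93 genes that were not members, were likewise higher in most cases. Of these, 27 were at least 2-fold higher and 3 at least 2-fold lower, and the median log2 ratio of the 92 that averaged 1 FPKM or more was 0.69. The highest log2 ratios were those of Fam64a (now Pimreg; 13.7 (WT) and 57.9 FPKM (KO)), the centromere genes Cenpw (12.2 and 47.0 FPKM) and Cenpm (10.4 and 40.2 FPKM), and the mitotic kinase gene Pbk (51.3 and 169 FPKM). Among the lowest were Anapc1, the largest subunit of the APC/C (33.6 and 11.6 FPKM), the cohesin genes Pds5a (48.8 and 23.4 FPKM) and Rad21 (37.0 and 19.7 FPKM), and the spindle gene Ckap5 (23.7 and 11.5 FPKM). The cohesin genes Pds5a and Rad21 are used in all phases of the cycle, and their corrected log2 ratios were -0.80 and -0.66. After the correction the median of the list was 0.62, and no gene of it was past the cut-off downwards.

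Genes of DNA replication, which takes place in S phase, had values much like those of the members. Of 53, 23 were at least 2-fold higher and 1 at least 2-fold lower, with a median log2 ratio of 0.93, and no test of a difference between the lists is possible with 1 library per genotype. Gins2 (23.6 and 84.9 FPKM), Gins1 (18.4 and 63.0 FPKM), Pole2 (11.4 and 36.7 FPKM) and Pold2 (34.2 and 104 FPKM), which belong to the replicative helicase and polymerases, had the highest ratios. The lowest were those of Pole (9.40 and 4.10 FPKM), the single gene past the cut-off downwards as deposited and not after the correction (log2 ratio -0.19, transcript of 7163 bases), Orc1 (20.3 and 18.4 FPKM), Rfc2 (220 and 233 FPKM) and Rfc1 (23.9 and 27.5 FPKM).

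Genes that control the step into the cycle were divided. Among 8 G1 cyclins, CDKs and RB family genes, Cdk4 was at least 2-fold higher (276 (WT) and 636 FPKM (KO)), and the retinoblastoma gene Rb1 (54.2 and 10.7 FPKM) and the related Rbl2 (31.6 and 8.86 FPKM) were at least 2-fold lower. Their relative Rbl1, which is transcribed in cycling cells, had 21.5 and 34.2 FPKM. The D cyclins were not past the cut-off, Ccnd1 with 1.38 and 1.01 FPKM, Ccnd2 with 72.5 and 51.6 FPKM and Ccnd3 with 162 and 186 FPKM, and neither was Cdk6 with 21.3 and 36.6 FPKM. With the correction Cdk6 (1.68) and Rbl1 (1.08) had log2 ratios past the cut-off, and that of Ccnd2 turned from -0.49 to 0.38. Of 8 CDK inhibitor genes, 4 were at least 2-fold lower, namely Cdkn1a, which encodes p21 (217 and 66.4 FPKM), Cdkn1b (1.58 and 0.739 FPKM), Cdkn2a (4.71 and 0.265 FPKM) and Cdkn2b (55.2 and 4.43 FPKM). Among all 12507 genes above the floor, 22.9% were lower by this rule and 12.3% were higher. Cdkn2a rested on about 1.91 estimated reads in the KO library. Cdkn1b rested on about 25.9 (WT) and 16.9 (KO) estimated reads, and its counting interval (from 0.238 to 0.897) included 0.5. Cdkn3, a phosphatase of Cdk1 and Cdk2 that is itself transcribed with the mitosis genes, was at least 2-fold higher as deposited (15.1 and 34.5 FPKM) and not after the correction (log2 ratio 0.56), and Cdkn1c (0.944 and 1.295 FPKM), Cdkn2c (5.35 and 6.81 FPKM) and Cdkn2d (55.5 and 48.9 FPKM) were not past the cut-off.

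**Figure D4:**
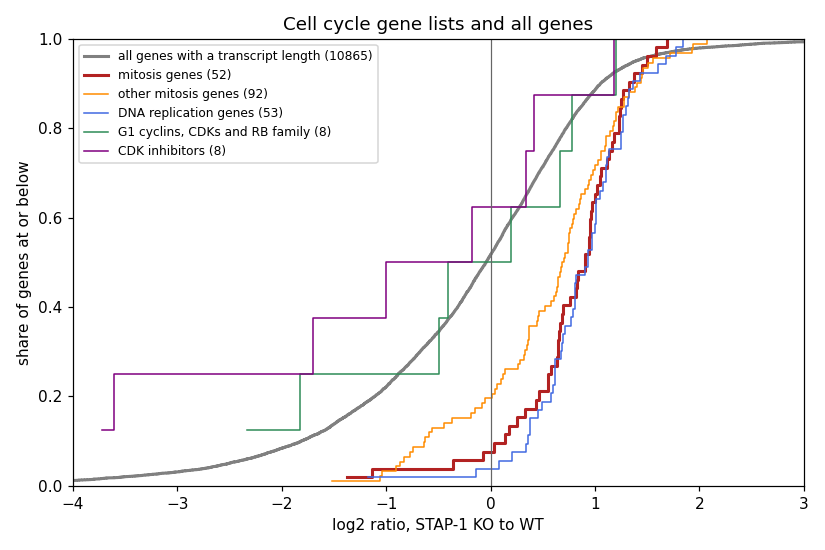
Share of genes at or below each log2 ratio of STAP-1 KO to WT, for the mitosis genes (red), other mitosis genes (orange), DNA replication genes (blue), G1 cyclins, CDKs and RB family (green), CDK inhibitors (purple) and all genes with a transcript length (grey), each averaging 1 FPKM or more and with the number of genes in the legend. The red and blue curves run close together with medians of 0.91 and 0.93, the orange one has a median of 0.69, and the green and purple ones have medians of -0.11 (0.33 after the length and GC correction, so that its sign turned) and -0.59.

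The members kept nearly the same order of levels in both libraries, with Spearman's rank correlation of 0.94 across the 52 genes. Birc5 (118 and 276 FPKM), Ccna2, Bub3 and Ccnb2 followed Ube2c at the top, and Cenpf, Cenpe, Espl1 and Anln were the lowest in the WT library. The 12 members that share exon bases with a gene on the opposite strand had a median log2 ratio of 0.98, and the 40 members that do not had a median of 0.83.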

How the data were processed

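RNA-seq was performed on 1 WT and 1 STAP-1 KO library, and the authors deposited FPKM values. Single reads of 75 bases had been mapped to mm10 with TopHat2 2.0.13 and Bowtie2 2.2.3, and Cuffnorm (Cufflinks 2.2.1 in the submitters' processing notes) gave the FPKM. The annotation and the library scaling are not given in the sources used here. The call needed a ratio of 2 and a floor of 0.1 FPKM in each library, and log2 ratios had a pseudocount of 0.1. Medians were taken over genes averaging 1 FPKM or more. The members and lists were chosen with earlier results of these data known.

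Of 23284 symbols, 20911 matched GENCODE M21 (GRCm38) as written and 1901 by an older symbol. Estimated reads are FPKM times length less 208 bases times the effective depth, at which 41.8% of 431 low values (WT) and 44.3% of 494 (STAP-1 KO) were within 0.01 of a whole read. On a transcript of 2000 bases, 0.223 FPKM (WT) and 0.160 FPKM (STAP-1 KO) correspond to 3 reads. The correction used 20 bins each for length and GC content. Named non-members were the 4 highest and 4 lowest of their list, and all G1 and CDK inhibitor genes. The tools were scipy 1.17.1, pandas 2.3.3 and numpy 2.4.6 under Python 3.11.15, with matplotlib 3.10.9 for figures, and the steps were tested on simulated data. One of the marker lists is not reported here.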

Additional observations from a re-analysis of the deposited data

How the results depend on the processing

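Of 135 values recomputed under 13 alternatives, 121 kept their direction and stayed within 1.5 times the count, or for a median 1.5 times the ratio, reported. Within that limit the median log2 ratio of the anaphase and APC/C genes went from 0.81 to 0.29 with the correction for length and GC content (0.47 with the longest transcript), and that of the regulators and proliferation marker from -0.36 to -0.11 with a mean of at least 10 FPKM. The median log2 ratio of the 52 mitosis genes was from 0.79 to 1.01, and that of the other mitosis genes from 0.62 to 0.79. A cut-off of 1.5-fold gave 39 members higher and one of 3-fold gave 2 higher and 0 lower. For the other mitosis genes these cut-offs gave 54 higher and 11 lower, and 4 higher and 0 lower. The number of members higher, 19 as reported, was 13 after the correction for length and GC content (15 with the longest transcript), 25 with upper quartile scaling and 27 after rescaling to an equal sum, and that of other mitosis genes, 27 as reported, was 22 (22), 29 and 32. The correction left 0 members lower and 0 other mitosis genes lower, and with the length of the longest transcript, an alternative added after seeing the data, it left 0 and 1. It turned the median of the regulators and proliferation marker from -0.36 to 0.22 (0.30 with the longest transcript). The cause was not tested. Rescaling to an equal sum moved the median of all genes by 0.10, left 1 other mitosis gene lower and turned the sign of 1 member, Kif4. No paired analysis was possible because there was 1 library per genotype, and for the same reason no library could be left out. Counting intervals cover neither mice nor library preparations, and effective depths can include a scaling by Cuffnorm.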
